A study of Ctenopharyngodon idella with 6 samples.

Results

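The entries of the miR-193 and miR-365 families were followed in plasma exosomes of grass carp that had grown large or had stayed small. Members were all rows of the deposited table of known miRNAs named miR-193 or miR-365 with no further digit in the number, in any species, letter or arm. The rule used names only and no measured value. It found 36 of the 2925 entries, 21 of miR-193 and 15 of miR-365.

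Small RNA was sequenced from plasma exosomes, which are small membrane vesicles that cells release into the blood. The animals were 10 months old and had been kept for 9 months in a high-density pond. The 3 large fish libraries (L1 to L3) were made from 6 fish, 2 per plasma pool, and the 3 small fish libraries (S1 to S3) from 15 fish, 5 per plasma pool. Both groups were untreated. The size of the fish and the number of fish in a pool cannot be told apart. A replicate here is a pool, and a p-value measures the spread between pools.

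A miRNA is cut from a hairpin precursor, which can give a mature strand from its 5′ side (5p) and another from its 3′ side (3p). Bases 2 to 8 of the mature strand form the seed, which pairs with target messenger RNAs. In vertebrates mir-193 and mir-365 lie side by side in the genome, and in mammals the pair is duplicated, with mir-193b beside mir-365a and mir-193a beside mir-365b. In mammals the 3p strands of both families are the ones usually studied. In human cancer cells miR-193 is known to restrain cyclin D1 and urokinase, and in cultured mouse cells miR-193b and miR-365 have been linked to the formation of brown fat cells.

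The members were described by 6 forms of family, letter and arm, and the sequence of the entry that stands for each form is shown to let the forms be told apart, with the seed in capitals, 5′ to 3′, in the DNA letters of the deposited table. The prefix gives the species of the reference entry: dre is zebrafish, ggo gorilla, gga chicken, mdo opossum, hsa human and ppa bonobo. These are reference sequences of those species and not grass carp sequences. The last 3 lines are entries that share a seed or nearly a whole sequence with a form.
miR-193b-5p (dre-miR-193b-5p): cGGGACTTtgggggcgagatg
miR-193a-5p (dre-miR-193a-5p): tGGGTCTTtgcgggcaaggtga
miR-193b-3p (dre-miR-193b-3p): aACTGGCCcgcaaagtcccgct
miR-193a-3p (mdo-miR-193a-3p): aACTGGCCtacaaagtcccag
miR-365-3p (ggo-miR-365a): tAATGCCCctaaaaatcctta
miR-365-5p (gga-miR-365-2-5p): gAGGGACTttcaggggcagctgt
hsa-miR-365b-5p: aGGGACTTtcaggggcagctgt
hsa-miR-193b-3p: aACTGGCCctcaaagtcccgct
ppa-miR-193b: aACTGGCCctcaaagtcccgc

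The 3p strands of the letters a and b shared a seed, and their 5p strands did not. The seed ACTGGCC stood in 14 entries, which were the 3p entries of miR-193 apart from tgu-miR-193b-3p (zebra finch), an entry that starts 1 base later. Against dre-miR-193b-3p, mdo-miR-193a-3p carried the substitutions C9T, G10A, G20A and C21G, where the first base is that of dre-miR-193b-3p and positions count from 1 at the 5′ end. On the other arm, dre-miR-193a-5p differed from dre-miR-193b-5p by C1T, A5T, G11C, G16A and A19G, of which A5T lies in the seed. The seed GGGACTT of miR-193b-5p was also that of 7 miR-365-5p entries, hsa-miR-365b-5p among them, and of no other entry in the table. The chicken entry gga-miR-365-2-5p begins 1 base earlier, so its bases 2 to 8 read AGGGACT. None of the 9 seeds of the members was found in an entry outside them.

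Several entries of different species carried the same values in all 6 libraries, and the 36 entries held 16 distinct sets of values, 8 of each family. The entries spanned 20 species prefixes, with 18 entries of each arm and lengths of 17 to 24 bases. For 7 entries without an arm in the name, the arm was read from the sequence. The set of dre-miR-193b-3p held 8 entries, some of which differed in sequence at position 10, such as G10T in hsa-miR-193b-3p and G10A in mmu-miR-193b-3p (mouse). In contrast, ppa-miR-193b, which is the first 21 bases of hsa-miR-193b-3p, held other values. Entries with the same values were counted once, as a set, wherever sets are named.

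The values are counts of an entry scaled to 1000000 miRNA counts of its library (CPM), after reads with the same molecular identifier had been counted once. Large fish libraries held 5272418 (L1), 7660938 (L2) and 6516736 (L3) counts, and small fish libraries 6684107 (S1), 11524535 (S2) and 7440944 (S3) counts. All known entries together sum to 996790 (L2) to 997976 (S2) CPM, with each entry of identical values included. The totals are therefore sums over entries and not numbers of separate molecules. A count of 0 allows up to 0.392 to 0.569 CPM in the large fish libraries and up to 0.260 to 0.449 CPM in the small fish libraries, on the basis of 3 counts and for counting error only. Large fish were compared with small fish by limma on log2(CPM + 1) over the 1807 entries that reached 1 CPM in 3 or more libraries, so fold changes are on that scale and understate the change of low entries. To pass, an entry needed a Benjamini-Hochberg adjusted p up to 0.05 and a change of 1.5-fold or more. All tested entries together had a median log2 fold change of -0.26, with TMM scaling -0.05 and with quantile normalization 0.09. The split of passing entries, 51 higher and 257 lower in large fish, was 95 higher and 165 lower with TMM and 138 higher and 95 lower with quantiles. It was 6 higher and 1 lower without L1, 1 higher and 0 lower without L2 and 12 higher and 14 lower without S3. Before adjustment, limma p was under 0.05 for 587 entries with all libraries. Without L1, L2 and S3 this held for 491, 549 and 511 entries. The shares of passing entries given below therefore hold only for all libraries together.

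Of the 36 members, 22 entries in 10 sets were tested, and 14 entries in 6 sets stayed under the limit. The miR-365-3p strand fell in large fish, at 18.8 ± 3.01 CPM in large fish and 39.1 ± 6.08 CPM in small fish (SD, n = 3 each). No other set passed. The 3 entries of miR-365-3p made up all the members that passed, 3 of 22 tested entries (13.6%) against 14.2% of all tested entries called lower in large fish, so the share among members was close to that of the table. No member was called higher, against 2.82% of all tested entries. All 10 tested sets, and so all 22 tested entries of the members, had a log2 fold change below 0, beside 68.0% of all tested entries. The sets are not 10 separate measures, since several share most of their counts. Those of gga-miR-365-2-5p and mmu-miR-365-2-5p differed only in S3 (57 against 55 counts), as did gmo-miR-365-5p and ipu-miR-365 (37 against 36 counts). The log2 fold changes of the 10 tested sets ran from -1.52 to -0.42, with a median of -0.56 over sets and -0.63 over entries beside -0.26 over all tested entries. In plasma, fewer vesicles of a tissue and less of a miRNA in each vesicle cannot be told apart.

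**Figure D1:**
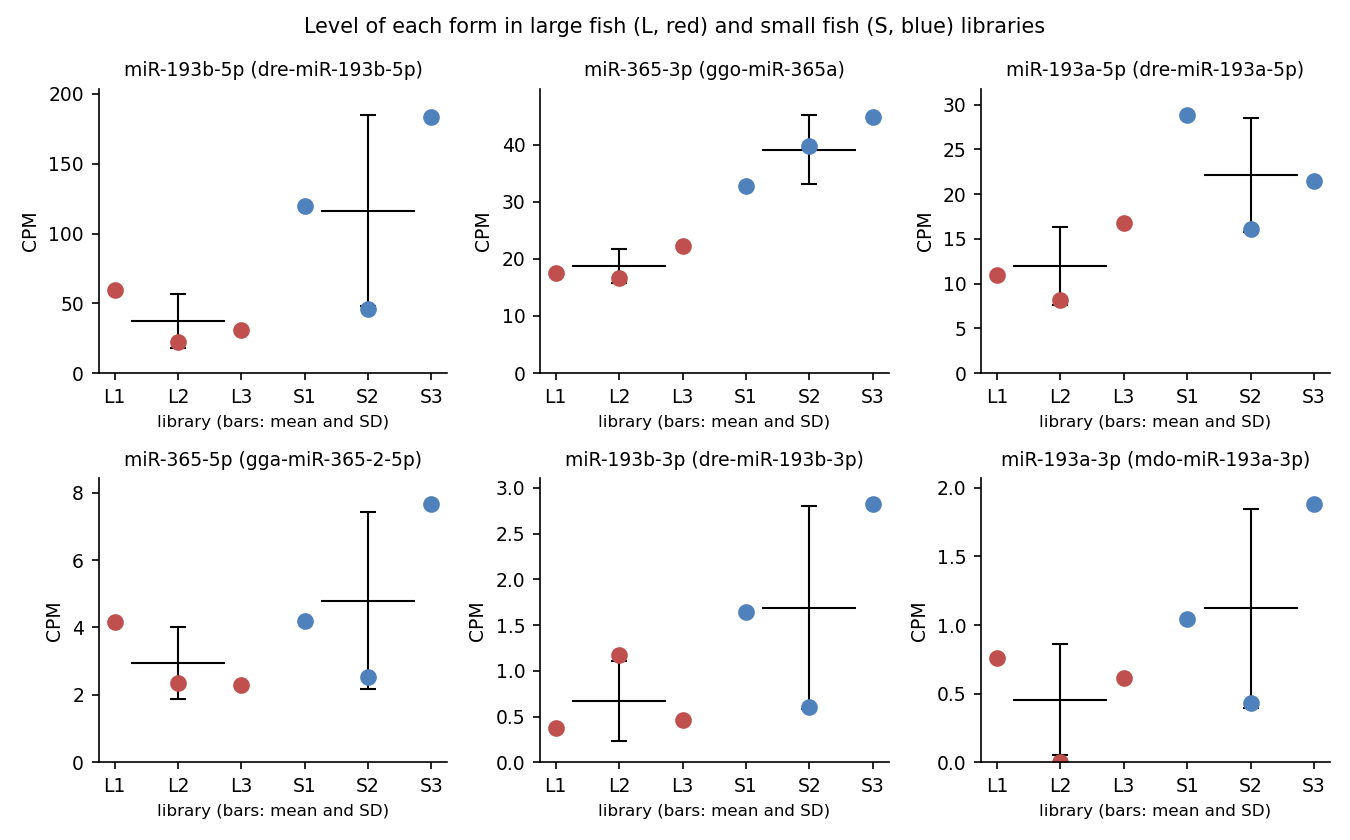
Level of each of the 6 forms in CPM (y axis, linear, from 0) in the 3 large fish libraries (red) and the 3 small fish libraries (blue), with black bars for mean and SD of 3 libraries. Only miR-365-3p had all large fish libraries (16.7 to 22.3 CPM) below all small fish libraries (32.8 to 44.9 CPM), and S2 was the lowest small fish library in the other 5 panels.

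By mean level over all libraries the forms ranked in the order miR-193b-5p, miR-365-3p, miR-193a-5p, miR-365-5p, miR-193b-3p and miR-193a-3p. The mean of each form was 2.66, 1.70, 4.42, 3.27 and 1.497 times that of the next form down. The first 4 of these 5 steps held in 6 of 6 libraries. The last did not, since miR-193b-3p lay above miR-193a-3p in 1 of 3 large fish libraries and in 3 of 3 small fish libraries. CPM is not divided by length, but mature strands are of nearly the same length, here 21 to 23 bases. Whether strands of different sequence were captured, and assigned to entries of other species, equally well was not tested. The order is therefore that of the deposited values. Added together, the 6 forms came to 93.1, 50.4 and 73.5 CPM in L1, L2 and L3, against 189, 106 and 262 CPM in S1, S2 and S3. The groups did not overlap in this sum, which was 72.3 ± 21.4 CPM in large fish and 185 ± 78.3 CPM in small fish (SD, n = 3 each). The margin between L1 and S2 was narrow. Of all tested entries, taken singly and not as sums, 29.6% also had all large fish libraries below all small fish libraries. On average miR-193b-5p made up 49.9 ± 12.02% of the sum in large fish, against 59.1 ± 13.7% in small fish, and miR-365-3p 27.4 ± 7.63% in large fish, against 24.1 ± 11.8% in small fish.

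The main strand of miR-365 in mammals, miR-365-3p, is represented by ggo-miR-365a, and hsa-miR-365a-3p and pbv-miR-365-3p (Burmese python) carried the same values. L1, L2 and L3 had 17.4, 16.7 and 22.3 CPM of it, against 32.8, 39.7 and 44.9 CPM in S1, S2 and S3. These levels came from 92, 128 and 145 counts in large fish and 219, 458 and 334 counts in small fish. All large fish libraries lay below all small fish libraries, and within each group the libraries were close together. This was the only tested set without overlap, 1 of 10 sets or 3 of 22 entries. Of all tested entries, 29.6% had large fish below small fish and 40.1% were without overlap in either direction. The log2 fold change was -1.02 (standard error 0.24, 95% interval -1.57 to -0.46, limma adjusted p = 0.0307), or -0.76 after the median of the tested entries was subtracted. The call was lost in 10 of 18 other settings with the direction kept, among them TMM scaling (log2 fold change -0.78, adjusted p = 0.0671) and edgeR's quasi-likelihood test on the recovered counts (-0.82, adjusted p = 0.0766). It was also lost without L1, L2, S1, S2 or S3, at adjusted p of 0.0885, 0.0714, 0.0592, 0.0802 and 0.112, and was kept without L3 at 0.0206.

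The most abundant form was miR-193b-5p, the strand opposite to the well studied miR-193b-3p. A single entry, dre-miR-193b-5p, stood for it, at rank 667 of 2925 by mean level. Its level was 59.4, 21.9 and 31.2 CPM in L1, L2 and L3, against 120.0, 46.1 and 183 CPM in S1, S2 and S3. S1 and S3 were above every large fish library, but S2 was below L1, so the groups overlapped. The mean was 37.5 ± 19.5 CPM in large fish and 116 ± 68.6 CPM in small fish (SD, n = 3 each). The log2 fold change was the largest among the members at -1.52, but with a standard error of 0.56 and a 95% interval of -2.84 to -0.20 it did not pass (limma adjusted p = 0.107). Without S2 the log2 fold change was -2.07 and passed at an adjusted p of 0.0467.

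The other 5p strand of the family, miR-193a-5p, lay lower. In dre-miR-193a-5p it was 11.001, 8.22 and 16.7 CPM in L1, L2 and L3, against 28.9, 16.1 and 21.5 CPM in S1, S2 and S3. S2 fell just under L3, which was the only overlap. With means of 11.98 ± 4.34 CPM in large fish and 22.2 ± 6.39 CPM in small fish (SD, n = 3 each), the log2 fold change was -0.85 (standard error 0.34, 95% interval -1.64 to -0.06, limma adjusted p = 0.130). The set of ami-miR-193a-5p (alligator) and mmu-miR-193a-5p, whose sequences each differ from the zebrafish entry by 1 base over the shared length, had nearly the same counts and a log2 fold change of -0.86 (adjusted p = 0.136). Neither set passed.

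The minor strand of miR-365, miR-365-5p, was spread over more entries than any other form. Its entry gga-miR-365-2-5p had 4.17, 2.35 and 2.30 CPM in L1, L2 and L3, against 4.19, 2.52 and 7.66 CPM in S1, S2 and S3. Only S3 stood clear of the large fish libraries, and S1 was level with L1. The log2 fold change was -0.49 (standard error 0.39, 95% interval -1.41 to 0.43, limma adjusted p = 0.437), so neither a fall of more than 2-fold nor a small rise was outside the interval. The 4 other tested sets of this strand, named for mmu-miR-365-2-5p, gmo-miR-365-5p (Atlantic cod), ipu-miR-365 (channel catfish) and rno-miR-365-5p (rat), had log2 fold changes of -0.47, -0.44, -0.42 and -0.50. Their adjusted p ran from 0.397 to 0.515, and none passed. The size of these differences depended on single libraries. Without S3 the log2 fold change was -0.15 for gga-miR-365-2-5p and mmu-miR-365-2-5p and -0.018 for gmo-miR-365-5p and ipu-miR-365, and without S2 it was -0.80, -0.78, -0.76 and -0.75 for these 4 sets. For rno-miR-365-5p it was -0.17 without L2 and -0.75 without L3. With quantile normalization the differences of gga-miR-365-2-5p and mmu-miR-365-2-5p were -0.031 and -0.0027.

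The 3p strands of miR-193 were scarce. The set of dre-miR-193b-3p had 0.379, 1.17 and 0.460 CPM in L1, L2 and L3, against 1.65, 0.607 and 2.82 CPM in S1, S2 and S3, from 2, 9 and 3 counts and 11, 7 and 21 counts. L2 was above S2, and the log2 fold change of -0.63 had a 95% interval of -1.55 to 0.29 (limma adjusted p = 0.309). For miR-193a-3p, which stayed under the limit for testing, L1, L2 and L3 had 4, 0 and 4 counts, against 7, 5 and 14 counts in S1, S2 and S3. In CPM this was 0.759, 0 and 0.614 in large fish, where the 0 of L2 allows up to 0.392 CPM, against 1.05, 0.434 and 1.88 CPM in small fish. Again S2 fell inside the range of the large fish. The entry tgu-miR-193b-3p, named b, carried the values of the a strand, whose sequence it shares.

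The remaining 5 untested sets, 9 entries in all, were at 0 in all 3 large fish libraries, and no set was at 0 in all 3 small fish libraries. By entries above 0 in each library, the whole table leaned the same way. It had 2151, 1984 and 2105 entries above 0 in L1, L2 and L3, against 2239, 2432 and 2416 in S1, S2 and S3. Entries at 0 throughout a group were not counted over the whole table. Depth, by these totals over entries, also differed, since S2 held 11524535 counts and no large fish library more than 7660938. Whether members were at 0 in large fish more often than other entries was therefore not tested. Most of the 5 untested sets rested on a few counts. The set of ami-miR-365-5p had 2 counts in S2 and 2 in S3, ppa-miR-193b had 2, 1 and 2 counts in S1, S2 and S3, pma-miR-193 (lamprey) had 2 counts in S3, and the set of aca-miR-193-5p (anole lizard) had 3 counts in S1. The exception was ssa-miR-365-2-5p (Atlantic salmon), with 20 counts in S2, or 1.74 CPM, and 0 in the other 5 libraries. This entry is the only member with the seed GGGGCTT, which differs from that of the other miR-365-5p entries.

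**Figure D2:**
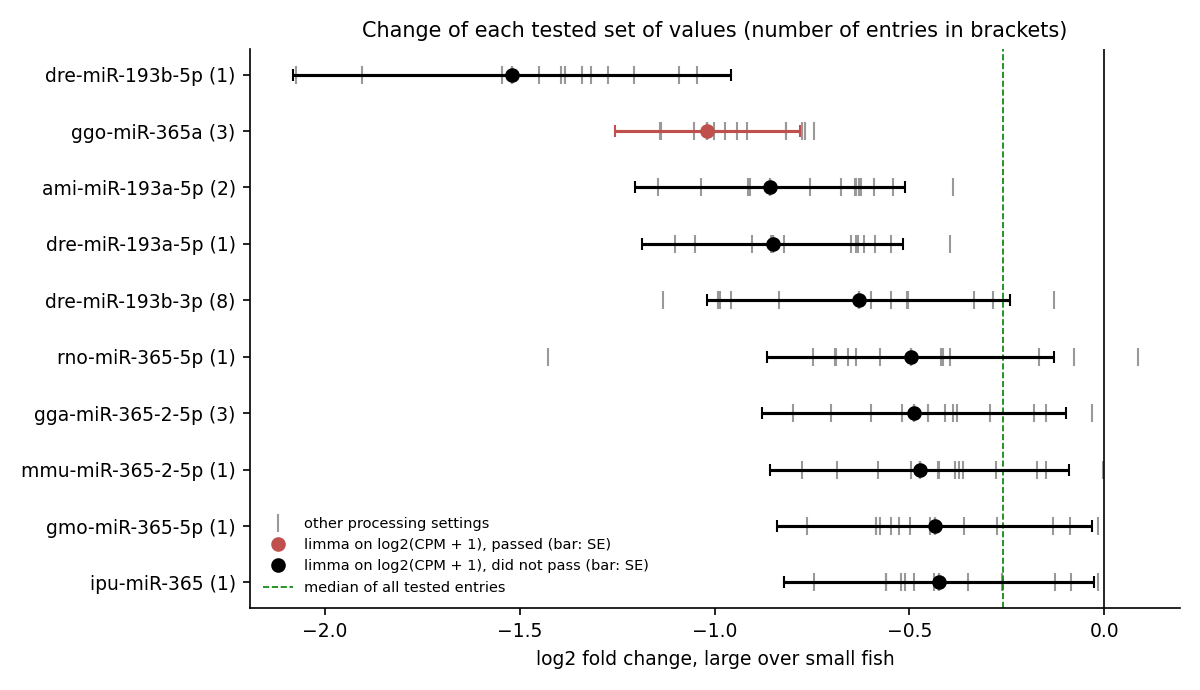
Log2 fold change of large over small fish (x axis) for the 10 tested sets, named by 1 entry each with the number of entries in brackets. Points are limma estimates on log2(CPM + 1) with standard errors as bars, red for the set that passed, grey ticks the values under other processing settings, and the dashed line the median of all tested entries at -0.26. All 10 points lie left of that line, though several sets have nearly the same counts, and only ggo-miR-365a at -1.02 passed.

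Levels of miRNAs that mark single tissues or cell types, each family judged by its most abundant entry, also differed between the groups. From these same libraries, the authors had already reported the leukocyte families as mostly higher in large fish. They had reported the skeletal muscle families, and part of the mesenchyme list, as mostly lower. The lists were chosen with earlier results known, so the shares below are not an independent test. The skeletal muscle families miR-1, miR-133 and miR-206 were all lower in large fish, 3 of 3 families and 69 of 75 tested entries, beside 16.8% of all 149 tested families and 14.2% of all tested entries lower, and their summed level was 2374 to 6609 CPM in large fish and 10585 to 17496 CPM in small fish. In smooth muscle and mesenchyme, 3 of 4 families and 33 of 66 tested entries were lower, with sums of 4057 to 8534 CPM in large fish and 11916 to 13463 CPM in small fish. Those of leukocytes (miR-150, miR-223 and miR-142) were all higher in large fish, 3 of 3 families and 26 of 36 tested entries, beside 4.70% of all tested families and 2.82% of all tested entries higher, with a sum of 9374 to 11700 CPM in large fish and 3283 to 4506 CPM in small fish. Whether these families passed depended on which library was left out, as it did for the table as a whole. None of the muscle, mesenchyme and leukocyte families passed without L1 or without L2, while no family of either muscle list passed without S3 or by edgeR's quasi-likelihood test. Of the leukocyte families, 1 passed without S3 and 2 by edgeR's quasi-likelihood test. Without S2, 1 skeletal muscle family passed. The log2 fold changes of these 10 families kept their sign in all 18 other settings, which were applied to the lists after the data were seen. None of the 4 epithelial families passed, and their sum was 323 to 439 CPM in large fish and 456 to 3952 CPM in small fish. The 2 erythroid families, miR-122 of liver and miR-126 of endothelium did not pass, and no family of these lists was at 0 in any library. The part of these tissues in the level of miR-193 and miR-365 was not tested. No miRNA defines an exosome, and exosome proteins were not analysed here.

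Of the 5 families whose level followed that of miR-365-3p most closely, 3 were the skeletal muscle families. Among 106 other families with at least 10 CPM, the highest Pearson correlations of log2(CPM + 1) over the 6 libraries were with miR-206 at 0.98, miR-196 at 0.98, miR-143 at 0.97, miR-1 at 0.96 and miR-133 at 0.96. Of these, miR-206 averaged 3201 ± 1789 CPM in large fish and 11462 ± 2689 CPM in small fish (SD, n = 3 each), with a log2 fold change of -1.95 against -1.02 for miR-365-3p. A different group was most like miR-193b-5p, with miR-181 at 0.97, miR-31 at 0.91, miR-222 at 0.89, miR-204 at 0.88 and miR-211 at 0.87. The miR-181 entry was at 104 to 132 CPM in large fish and 133 to 192 CPM in small fish, a narrower range than that of miR-193b-5p. Between the forms themselves, the correlation was 0.93 for miR-193b-5p with miR-193a-3p, 0.92 for miR-193b-5p with miR-365-5p, 0.71 for miR-193b-5p with miR-365-3p and 0.51 for the 2 strands of miR-365. It was 0.69 for the 2 strands of miR-193b. The value for miR-193a-3p rests on 0 to 14 counts of that strand in a library. All families and forms were read from the same 6 libraries, so each correlation includes any difference between the groups and between library depths. No p is given.

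**Figure D3:**
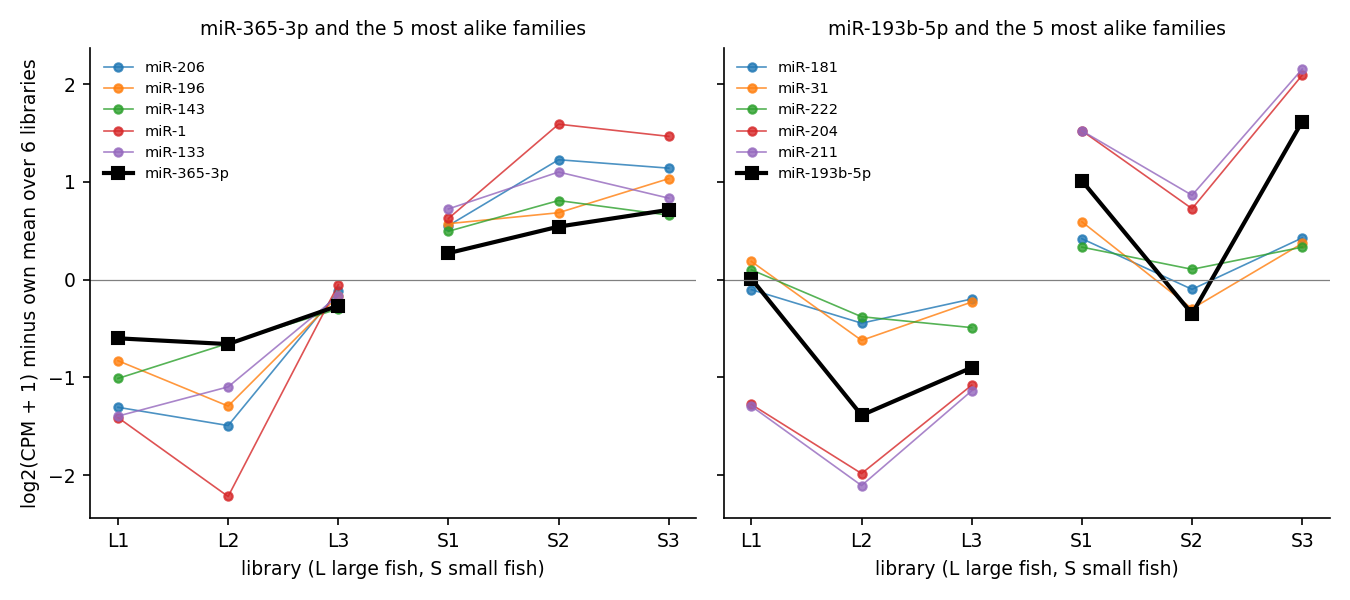
Log2(CPM + 1) minus its mean over the 6 libraries (y axis) for miR-365-3p (left panel) and miR-193b-5p (right panel), in black, and for the 5 families most like each, with large fish libraries (L) left of small fish libraries (S). Lines only join the libraries of 1 group. S2 is close to S3 for miR-206 and miR-1 beside miR-365-3p, and is the lowest of the small fish libraries for miR-193b-5p, which had 46.1 CPM there.

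Between the 5p and 3p entries that stand for miR-193b, miR-193a and miR-365, the more abundant strand was the same in both groups. The 5p strand took 98.0% of the miR-193b counts in large fish (684 against 14 counts, Wilson 95% interval 96.7 to 98.8%) and 98.6% in small fish (2696 against 39 counts, 98.1 to 99.0%). For miR-193a the 5p strand took 96.6% in large fish (93.5 to 98.3%) and 95.4% in small fish (93.3 to 96.8%). For miR-365 it was the 3p strand that led, with 86.9% in large fish (83.3 to 89.8%) and 89.9% in small fish (88.0 to 91.5%). The share of miR-365-3p was 80.7, 87.7 and 90.6% in L1, L2 and L3, against 88.7, 94.0 and 85.4% in S1, S2 and S3, and the groups overlapped. Counts were summed over the libraries of a group, the intervals cover counting error only, and entries of other species can draw on the same reads, so the shares hold for the entries shown.

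Apart from the pseudocount, ratios between forms of the same library do not depend on library scaling, and 6 of them were compared between large and small fish by a two-sided exact permutation test, in which 3 against 3 libraries cannot go below p = 0.1. The ratio of miR-365-3p to miR-193b-5p was not fixed across libraries. It compares opposite strands, and whether their precursors are neighbours in grass carp was not analysed here. The log2 ratio of miR-365-3p over miR-193b-5p was -1.71, -0.37 and -0.47 in L1, L2 and L3, against -1.84, -0.21 and -2.005 in S1, S2 and S3. In L2, L3 and S2 the 2 strands were nearly level, and in L1, S1 and S3 miR-193b-5p was well above miR-365-3p, so the spread lay inside the groups. The difference of the group means, 0.50, was below the spread between libraries (exact permutation p = 0.6, adjusted over the 6 ratios p = 0.72).

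For the 5p strands with a shared core, the groups separated with a pseudocount of 1. The log2 ratio of miR-365-5p over miR-193b-5p was -3.54, -2.78 and -3.28 in L1, L2 and L3, against -4.54, -3.74 and -4.41 in S1, S2 and S3. Every large fish library lay above every small fish library, by a narrow margin between L1 and S2. The means were -3.20 ± 0.39 in large fish, against -4.23 ± 0.43 in small fish (SD, n = 3 each), a difference of 1.03 (standard error 0.34), and the exact permutation p of 0.1 is the smallest this design allows (adjusted p = 0.6). The separation held with a pseudocount of 0.1 and was lost with 10, when S2 at -2.16 lay above L1 at -2.29 (difference 1.14, exact permutation p = 0.2). The pseudocount of 1 weighs more on miR-365-5p, at a few CPM, than on miR-193b-5p.

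With a pseudocount of 1, the ratios of strands and letters overlapped between the groups. For miR-193b-5p over miR-193b-3p the log2 ratio was 4.44 ± 1.03 in large fish, against 5.33 ± 0.39 in small fish, a difference of -0.89 (exact permutation p = 0.2, adjusted p = 0.6). For miR-365-3p over miR-365-5p it was 2.35 ± 0.49 in large fish, against 2.88 ± 0.59 in small fish (exact permutation p = 0.4, adjusted p = 0.6). The letters a and b of the 5p strand differed by -1.50 ± 0.75 in large fish, against -2.17 ± 0.80 in small fish (exact permutation p = 0.4, adjusted p = 0.6), and those of the 3p strand by -0.21 ± 0.80 in large fish, against -0.31 ± 0.13 in small fish (exact permutation p = 0.9, adjusted p = 0.9). The last ratio rests on at most 21 counts of either strand in a library, and the first on at most 21 counts of miR-193b-3p. With a pseudocount of 0.1 the difference of the first was -0.41 (exact permutation p = 0.7). With a pseudocount of 10, miR-365-3p over miR-365-5p separated the groups, at 0.95, 1.11 and 1.39 in L1, L2 and L3, against 1.59, 1.99 and 1.64 in S1, S2 and S3 (exact permutation p = 0.1). That pseudocount is above miR-365-5p in every library, where its highest level was 7.66 CPM in S3. The ratio then mainly repeats the level of miR-365-3p, and with a pseudocount of 0.1 or 1 the groups overlapped.

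**Figure D4:**
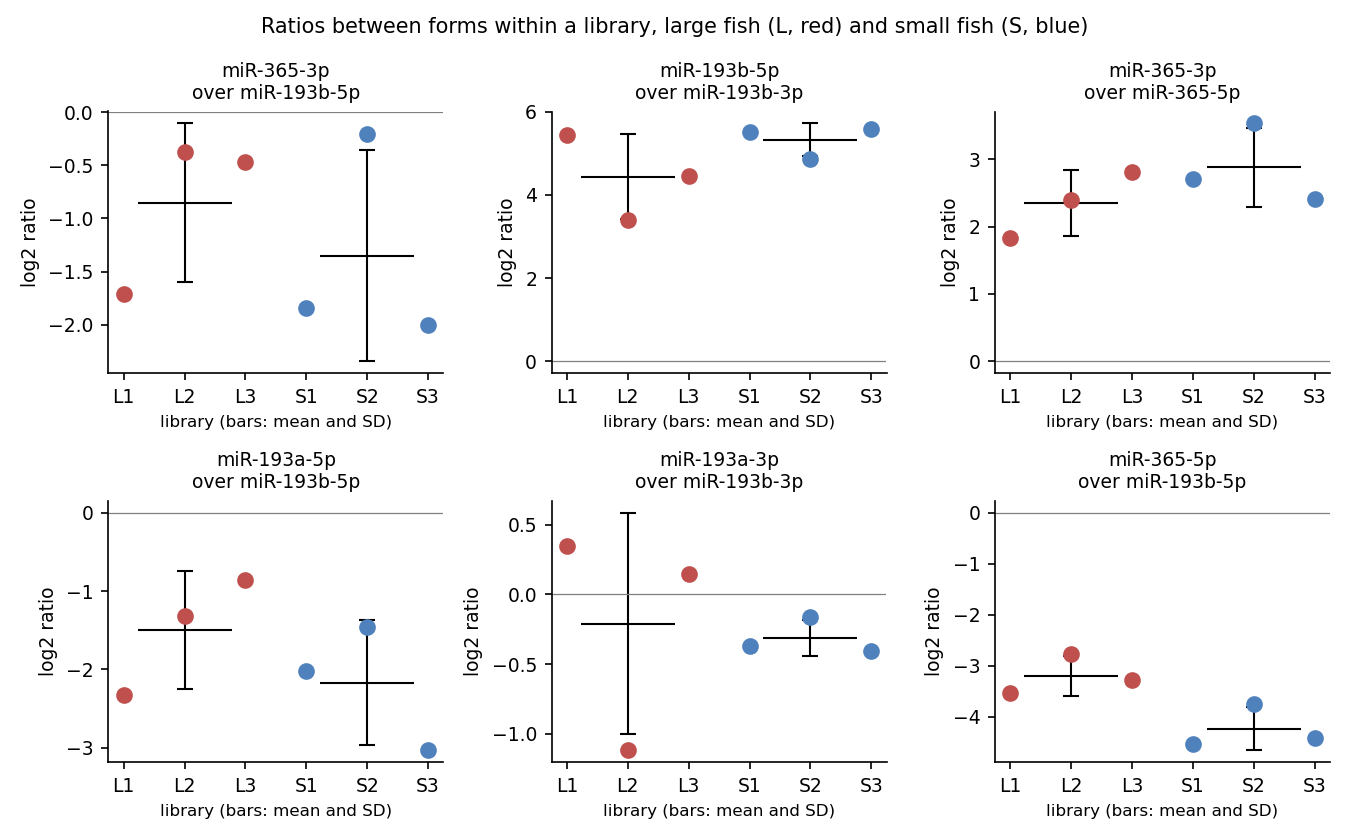
Log2 ratio between 2 forms, as the difference of log2(CPM + 1) (y axis, a separate scale in each panel), in the large fish libraries (red) and the small fish libraries (blue), with black bars for mean and SD of 3 libraries. With this pseudocount of 1, only miR-365-5p over miR-193b-5p separates the groups, at -3.54 to -2.78 in large fish and -4.54 to -3.74 in small fish, while miR-365-3p over miR-193b-5p spreads from -2.005 to -0.21 among small fish.

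The small fish libraries differed among themselves for most forms. S3 was the highest of all libraries in 7 of the 10 tested sets, and S2 the lowest small fish library in 9 of 10. Several of these sets have nearly the same counts, and this order was not counted over all tested entries. The level in S3 was 3.98 times that in S2 for miR-193b-5p, 4.65 times for miR-193b-3p (21 against 7 counts), 4.34 times for miR-193a-3p (14 against 5 counts) and 3.04 times for miR-365-5p (57 against 29 counts). It was only 1.33 times for miR-193a-5p and 1.13 times for miR-365-3p. A ratio of at least 3 was seen in 4.17% of the tested entries that were above 0 in S2, and the median ratio was 1.06. The coefficient of variation among pools was 52.0% in large fish, against 58.9% in small fish for miR-193b-5p, and 16.0% in large fish, against 15.5% in small fish for miR-365-3p.

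Other families linked to brown or beige fat cells in mammals, a role that is not established for grass carp, gave no common direction. The list holds families that promote and families that oppose fat cell formation, so a common direction would have no single meaning. Of 15 listed families, 11 were in the table and tested, 2 were lower in large fish and none was higher, with a median log2 fold change of -0.33 beside -0.21 over the 149 families tested, of which 16.8% were lower. Of the tested entries of these families, 61 of 238 were lower and 0 higher, beside 14.2% lower and 2.82% higher over all tested entries. The 2 families that fell were miR-133, which is also the muscle family above, and miR-196, at 82.9 ± 33.4 CPM in large fish and 231 ± 39.9 CPM in small fish (SD, n = 3 each, log2 fold change -1.53, limma adjusted p = 0.0219). Neither passed without L1, without L2, without S3 or by edgeR's quasi-likelihood test, and with quantile normalization 1 family of the list was lower and 2 were higher. For miR-455, which promotes brown fat formation in mice, the values were 20.2 ± 6.98 CPM in large fish and 32.5 ± 4.43 CPM in small fish (log2 fold change -0.71, adjusted p = 0.157). For miR-155, which opposes it in mice, they were 242 ± 36.4 CPM in large fish and 155 ± 67.6 CPM in small fish (log2 fold change 0.71, adjusted p = 0.177), and neither passed. The roles of the other families of the list were not set against their changes, which ran from -2.01 (miR-203) to 0.32 (miR-93).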

How the data were processed

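Plasma exosome RNA (3 ng per library) was made into small RNA libraries with molecular identifiers. After trimming, the authors filtered out reads of other RNA classes with Bowtie and compared the remainder with the grass carp genome and miRBase. The deposited CPM values are counts scaled to 1000000 known and newly predicted miRNA counts, summed over all entries, those with identical values included. Whole counts were recovered by dividing by each library's lowest step, and 100% of the values were whole within 0.02.

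The fit used limma 3.58.1 in R 4.3.3, with a trend, over all 1807 tested entries. Alternatives on recovered counts used edgeR 4.0.16 and DESeq2 1.42.0. In the edgeR fits, the quasi-likelihood test called 24 entries higher and 22 lower in large fish, and the exact test 145 and 206. Ratios were tested by exact permutation in Python 3.11.15 with scipy 1.17.1. Intervals are 95%. The procedure was tested on simulated data. Each form was represented by its zebrafish entry, or otherwise by the entry of highest mean, and the 5 most correlated families were named for miR-365-3p and miR-193b-5p. Members and lists were chosen with earlier results of these data known. Genome positions and newly predicted miRNAs were not analysed here.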

Additional observations from a re-analysis of the deposited data

How the results depend on the processing

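The number of miR-193 and miR-365 entries that passed was 3, and it was 0 under TMM scaling, quantile normalization, edgeR's quasi-likelihood test and edgeR's exact test, 0 to 3 when a library was left out, and 3 under the 7 other settings apart from the replicate block. For miR-365-3p the log2 fold change of -1.02 became -0.78 with TMM (adjusted p = 0.0671), -0.74 with quantile normalization (adjusted p = 0.0952), and -0.82 with edgeR's quasi-likelihood (adjusted p = 0.0766) and exact tests (adjusted p = 0.0739), and ran from -1.14 to -0.92 with a library left out. It passed with DESeq2. For miR-193b-5p the value ran from -2.07 to -1.09 with a library left out, and passed, among these, only without S2 (adjusted p = 0.0467). The untested miR-193a-3p moved from -0.53 to -1.44 with a pseudocount of 0.1. The direction reversed for rno-miR-365-5p under quantile normalization (0.085), and for miR-193a-3p over miR-193b-3p with a pseudocount of 0.1 (-0.30), and without L1 or L3, against 0.11 (range -0.17 to 0.56 with a library left out, -0.07 without L3). The other changes of miR-193 and miR-365 kept their direction and their side of the threshold. The other ratios kept their direction. No threshold was applied to ratios, since their exact permutation p cannot go below 0.1. The calls for skeletal muscle, leukocytes, and smooth muscle and mesenchyme, 3 families each, came to 0 without L1 or without L2. In the same order they were 0, 1 and 0 without S3, and 3, 3 and 4 without L3. The causes were not tested. A filter of 10 CPM left the 6 sets of miR-193b-3p and miR-365-5p untested, and settings that change the scaling or the test gave no value for miR-193a-3p.

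Pools with the same number were correlated at -0.05, -0.06 and 0.02 in their deviations from the group means. Pools with different numbers were correlated at -0.11 to 0.15. No pairing by number was seen, but 3 pools a group cannot settle whether the numbers pair them. With the replicate block, 1 entry passed, which was dre-miR-193b-5p (log2 fold change -1.52, adjusted p = 0.0467), and miR-365-3p did not (-1.02, adjusted p = 0.0536).

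With 3 pools a group, a change of miR-193b-5p could lie anywhere from -2.84 to -0.20 on the log2 scale, and the 3p strands of miR-193, with at most 21 counts in a library, were too scarce to compare.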
